A study of Mus musculus with 6 samples.

Results

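The genes described here make cholesterol and fatty acids, and they were read in cultured oligodendrocyte precursor cells (OPC), the dividing glial cells that later form myelin. They were taken by name as 29 genes: 18 enzymes of sterol synthesis, 4 regulators or carriers of sterols and 7 enzymes of fatty acid synthesis, each represented by the probe with the highest mean log2 intensity over the arrays. Of the 29 genes 27 had a probe on the array and 26 lay above background and were tested, among 11225 tested genes of 19973 named ones. Hmgcs1 and Fdft1, which make HMG-CoA and squalene, had no probe matched by name. Acaca, which makes malonyl-CoA for fatty acid synthesis, was matched only through a clone name, A530025K05Rik, and whether that probe reads the Acaca transcript was not tested. The probe was not above background on any array, at intensities of 59.0, 61.3 and 57.2 in spinal cord and 60.6, 56.6 and 65.0 in cerebrum.

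The cells were primary OPC of C57BL/6 mouse pups aged 6 to 8 days, taken from spinal cord (3 samples) and from cerebrum (3 samples) and hybridised to Illumina bead arrays. All 6 cultures grew for 7 days in vitro in 10 ng/ml PDGF-AA, the growth factor that keeps OPC dividing, so no sample lacks it. Each cell preparation pooled 3 to 4 pups, and the spinal cord and cerebrum samples with the same number came from the same preparation. The study compared the tissues in search of genes that matter for OPC migration. The arrays read RNA of whole cultures, in which fewer cells of a type and less RNA per cell cannot be told apart.

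Cholesterol is built from acetyl-CoA through mevalonate and isoprenoid units to squalene, which is closed to lanosterol and then trimmed to cholesterol. SREBP transcription factors, encoded by Srebf2 and Srebf1, switch on these enzymes and those of fatty acid synthesis when membrane sterols are low, and Insig1 holds the SREBP proteins back in the endoplasmic reticulum when sterols are plentiful. Oligodendrocytes make much of the sterol of their myelin themselves, which is why the pathway is studied in this lineage.

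Promoters of the genes are shown because SREBP proteins act on DNA together with factors bound at CCAAT and GC boxes, and 5 genes that the values below turn on are printed. RefSeq's promoter table for GRCm38.p6, which covers 250 bases before to 50 bases after each start, held 23 of the 29 genes in 29 windows. Scd2 was among the genes without a window. The printed windows lie at chr7:143829964-143830263 (Dhcr7, plus strand, 1 of its 3 windows), chr1:169969156-169969455 (Hsd17b7, minus strand), chr8:64733529-64733828 (Msmo1, minus strand), chr10:76531355-76531654 (Lss, plus strand) and chr15:82147019-82147318 (Srebf2, plus strand). They read 5′ to 3′ along the gene, and capitals mark CCAAT boxes on either strand and matches to the core of the sterol regulatory element with up to 1 mismatch.
Dhcr7: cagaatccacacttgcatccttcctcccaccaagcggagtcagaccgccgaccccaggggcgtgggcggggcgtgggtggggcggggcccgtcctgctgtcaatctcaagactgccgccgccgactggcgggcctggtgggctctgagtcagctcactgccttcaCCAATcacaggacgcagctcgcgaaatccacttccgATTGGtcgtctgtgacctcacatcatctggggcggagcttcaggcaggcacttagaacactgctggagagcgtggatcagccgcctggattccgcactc
Hsd17b7: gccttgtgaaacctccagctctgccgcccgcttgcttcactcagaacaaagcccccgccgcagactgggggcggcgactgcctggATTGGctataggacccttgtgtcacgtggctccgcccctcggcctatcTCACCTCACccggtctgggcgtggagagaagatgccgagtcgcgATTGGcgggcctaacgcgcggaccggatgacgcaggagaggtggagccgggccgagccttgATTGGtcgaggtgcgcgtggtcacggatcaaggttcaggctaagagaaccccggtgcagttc
Msmo1: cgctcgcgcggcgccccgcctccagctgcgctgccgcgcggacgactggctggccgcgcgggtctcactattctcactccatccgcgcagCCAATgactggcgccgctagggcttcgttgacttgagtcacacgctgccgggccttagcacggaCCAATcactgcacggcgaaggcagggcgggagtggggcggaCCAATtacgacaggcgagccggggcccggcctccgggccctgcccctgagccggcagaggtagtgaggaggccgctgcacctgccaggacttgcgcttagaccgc
Lss: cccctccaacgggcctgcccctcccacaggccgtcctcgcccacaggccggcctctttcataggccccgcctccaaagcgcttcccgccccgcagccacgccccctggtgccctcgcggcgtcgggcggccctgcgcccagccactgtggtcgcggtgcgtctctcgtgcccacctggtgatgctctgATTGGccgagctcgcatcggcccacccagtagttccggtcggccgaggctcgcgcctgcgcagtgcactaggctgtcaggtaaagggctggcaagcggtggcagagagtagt
Srebf2: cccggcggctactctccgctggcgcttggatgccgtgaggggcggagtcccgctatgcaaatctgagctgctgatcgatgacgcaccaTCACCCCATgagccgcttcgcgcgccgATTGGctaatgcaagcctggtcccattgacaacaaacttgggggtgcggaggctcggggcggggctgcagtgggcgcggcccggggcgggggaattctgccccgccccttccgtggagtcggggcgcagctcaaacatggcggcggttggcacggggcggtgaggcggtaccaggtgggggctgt

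The printed Dhcr7 window holds 2 CCAAT boxes, those of Hsd17b7 and Msmo1 hold 3 each, and those of Lss and Srebf2 hold 1 each. The other windows of Dhcr7, not printed, hold no CCAAT box. A sterol element core, TCACCCCAC with 1 mismatch allowed and on either strand, lies in the Hsd17b7 and Srebf2 windows. Over all genes of the set with a window, a CCAAT box (CCAAT) occurred in 20 of 23 (87%), against 41.1% of the 27025 genes in the table. A GC box (GGGCGG) occurred in 19 of 23 (82.6%), against 38.2% of all genes. The E-box CACGTG was in 4 of 23 (17.4%), against 8.09% of all genes. The sterol element core was in 5 of 23 genes (21.7%) with 1 mismatch allowed, against 11.1% of all genes, namely Acat2, Hmgcs1, Hsd17b7, Nsdhl and Srebf2. It was exact in Hmgcs1 alone, 1 of 23 (4.35%), against 0.614% of all genes. Matches to different motifs did not overlap in any window of the set, the windows were not matched on base composition, and a match is a description and not a bound site.

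The label of the cells was checked against OPC markers. On the log2 intensity scale Pdgfra, the receptor for PDGF-AA, read 13.44, 13.35 and 13.30 in spinal cord and 13.68, 13.60 and 13.39 in cerebrum. Sox10, a factor of the whole oligodendrocyte lineage, read 14.11, 13.82 and 13.77 in spinal cord and 13.89, 13.80 and 13.69 in cerebrum. Cspg4 and Olig2 were also above background in all 6 samples. Of 14 microglia markers 4 lay above background and none passed between tissues, and their summed intensity ran from 314 to 338 in spinal cord and from 305 to 330 in cerebrum. Summed intensity of the 8 astrocyte markers tested ran from 21445 to 23182 in spinal cord, below the 23622 to 31340 in cerebrum, while Gfap, Aldh1l1 and Gja1 were not above background. Sox9 alone set that order of the sums, since the other 7 summed to 15694 to 17051 in spinal cord and 13696 to 14801 in cerebrum. In limma 2 of the 8, Sox9 among them, were called lower in spinal cord and 0 higher, where 2.95% of all genes were called. Of the 8 differences 3 lay below 0. The part of such cells in the values below was not tested. On the second principal component replicates 1, 2 and 3 stood at 12.5, -1.57 and -8.39 in spinal cord and at 18.2, 4.56 and -25.2 in cerebrum. Preparation 3 was thus lowest in both tissues. Cerebrum replicate 3 lay farthest out, so counts are given with and without it. Preparations also differed in Xist, the RNA of the inactive X chromosome, which read 5.71, 11.56 and 10.17 in spinal cord and 5.70, 11.26 and 10.93 in cerebrum, and was thus low in preparation 1 of both tissues.

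None of the 26 genes tested passed between spinal cord and cerebrum OPC in limma at an adjusted p of 0.05, where 2.95% of all 11225 tested genes did. With the shared preparation as a block 1 of 26 passed, Scd2 (adjusted p = 0.0238), where 6.33% of all genes did. At an unadjusted p under 0.05 there were 2 of 26, Me1 and Scd2, against 1228 of 11225. The median difference, spinal cord minus cerebrum, was -0.02 on the log2 scale, against 0.00 over all genes, and 14 of 26 differences lay below 0. Adjusted p-values of the 26 ran from 0.293 to 0.993. The 95% intervals of the differences reached from -0.55 (Dhcr7) to 0.63 (Scd2), so all 26 intervals stayed within 2-fold in either direction and 25 within 1.5-fold. The 3 samples of one tissue lay wholly above those of the other for 2 of 26 genes, again Me1 and Scd2, against 15.6% of all genes.

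**Figure D1:**
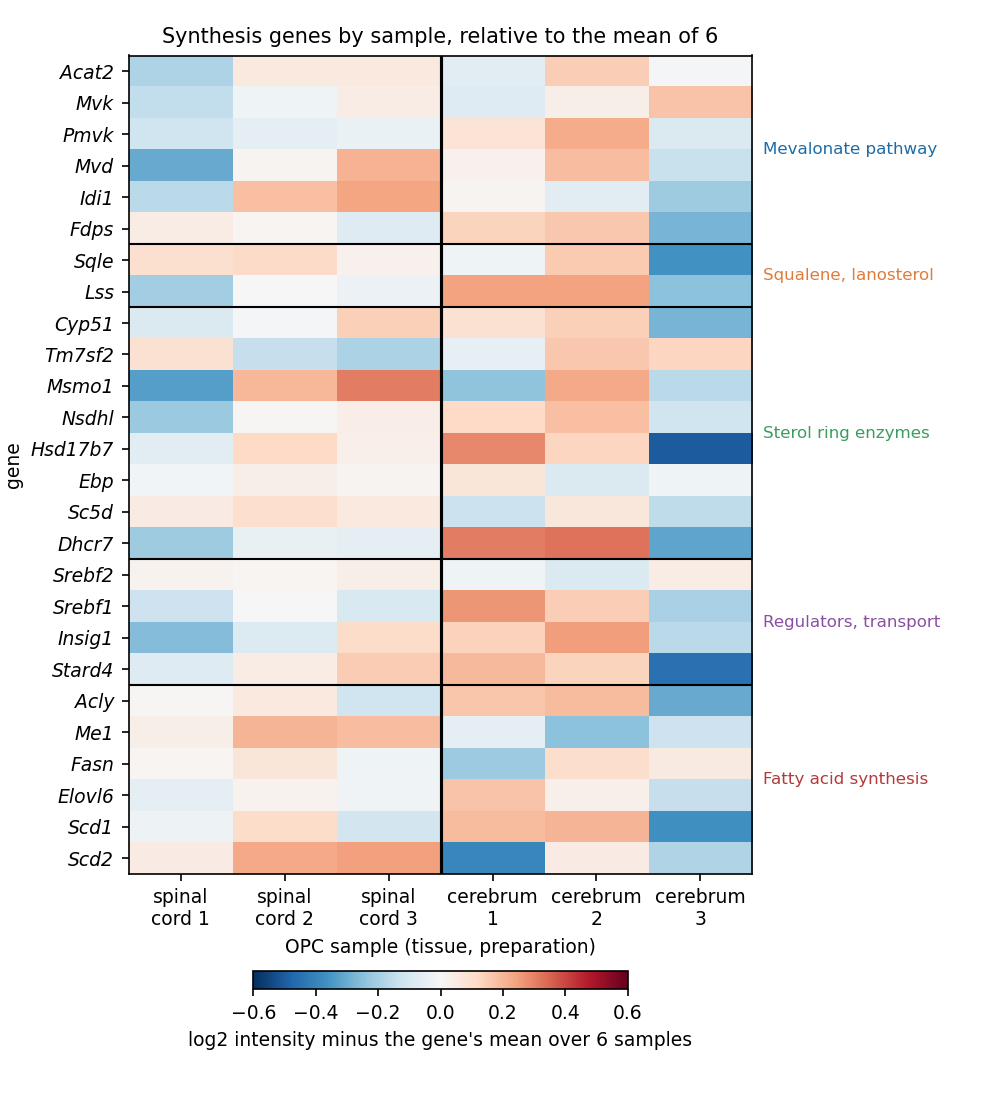
Each row is 1 of the 26 tested genes and each column 1 of the 6 OPC samples, with spinal cord to the left of cerebrum, and the colour gives the log2 intensity minus that gene's mean over the 6 samples. Cerebrum replicate 3 has the darkest blue cells (Hsd17b7, Stard4) and is the lowest sample for 13 of the 26 genes, while the spinal cord columns vary less.

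Among the enzymes that lead from acetyl-CoA to isoprenoid units, 6 were measured and none passed. Acat2, which joins acetyl-CoA units, read intensities of 3167, 3737 and 3754 in spinal cord and 3448, 3976 and 3555 in cerebrum. Mvd, the decarboxylase that makes isopentenyl diphosphate, read 726, 905 and 1031 in spinal cord and 912, 1020 and 813 in cerebrum. Idi1, which isomerises that product, read 373, 471 and 490 in spinal cord and 422, 399 and 359 in cerebrum. The tissues overlapped for all of these, and Idi1 had the highest difference of the group, 0.17 ± 0.13 (log2 difference ± SE, adjusted p = 0.824 in limma). The kinases Mvk and Pmvk, which phosphorylate mevalonate in turn, differed by -0.09 and -0.14 on the log2 scale, each with an SE of 0.11. Fdps, which joins the units to farnesyl diphosphate, had means of 13.55 ± 0.06 in spinal cord and 13.56 ± 0.24 in cerebrum (log2 intensity, SD, n = 3 each). Its cerebrum samples read 13194, 13519 and 9973, so the wider spread there came with replicate 3.

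Of the enzymes that turn farnesyl units into lanosterol, Sqle and Lss were measured. Sqle, the squalene epoxidase, read 8243, 8374 and 7842 in spinal cord and 7599, 8614 and 5986 in cerebrum. Lss, which closes the ring, read 1892, 2200 and 2129 in spinal cord and 2586, 2594 and 1845 in cerebrum. For Lss, cerebrum replicates 1 and 2 lay above all spinal cord samples and replicate 3 lay below them, and the difference was -0.16 ± 0.14 (log2, adjusted p = 0.872). For Sqle the difference was 0.16 ± 0.12 (log2, adjusted p = 0.843), and cerebrum replicate 3 was again the lowest of the 6.

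The 8 enzymes that work on the sterol ring were all measured, and none passed between tissues. Dhcr7, the reductase of the last step to cholesterol, read 1032, 1161 and 1155 in spinal cord and 1481, 1497 and 963 in cerebrum. Hsd17b7, the sterol ketone reductase, read 2264, 2572 and 2421 in spinal cord and 2900, 2600 and 1676 in cerebrum. In both, cerebrum replicates 1 and 2 exceeded every spinal cord sample while cerebrum replicate 3 lay below every one. Dhcr7 had the lowest difference of the 26 genes, -0.21 ± 0.16 (log2, adjusted p = 0.826), and Hsd17b7 the widest spread in cerebrum, 11.19 ± 0.42, against 11.24 ± 0.09 in spinal cord (log2 intensity, SD, n = 3 each). Msmo1, the methylsterol oxidase, read 4550, 6551 and 7081 in spinal cord and 4846, 6685 and 5113 in cerebrum, with replicate 1 the lowest in each tissue. Cyp51, the lanosterol demethylase, read 3283, 3477 and 3858 in spinal cord and 3705, 3856 and 2882 in cerebrum. Nsdhl, the partner of Hsd17b7 in removing methyl groups, read 618, 724 and 739 in spinal cord and 780, 815 and 662 in cerebrum. Cyp51 and Nsdhl overlapped between tissues, with differences of 0.03 ± 0.12 and -0.12 ± 0.12 (log2). Tm7sf2, a sterol reductase, Ebp, the sterol isomerase, and Sc5d, the lathosterol desaturase, differed by -0.16, 0.03 and 0.14 on the log2 scale, and Ebp varied least, with intensities of 860, 893 and 881 in spinal cord and 915, 820 and 856 in cerebrum.

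The regulators and the sterol carrier did not pass either. Srebf2, which encodes the SREBP that favours sterol genes, read 831, 828 and 838 in spinal cord and 806, 769 and 842 in cerebrum by its brightest probe. Srebf1, whose product favours fatty acid genes, read 171, 186 and 175 in spinal cord and 224, 206 and 163 in cerebrum. Insig1 read 1148, 1308 and 1493 in spinal cord and 1517, 1639 and 1231 in cerebrum. Of these 3 genes, Srebf2 alone had cerebrum replicate 3 as its highest sample, and Srebf1 and Insig1 both had it below the other cerebrum samples. Stard4, which carries cholesterol between membranes, read 1412, 1535 and 1652 in spinal cord and 1700, 1625 and 1092 in cerebrum, a difference of 0.08 ± 0.16 (log2, adjusted p = 0.971).

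The fatty acid enzymes held the 2 genes whose tissues did not overlap. Scd2, a stearoyl-CoA desaturase that makes monounsaturated fatty acids, read 1298, 1469 and 1493 in spinal cord and 952, 1295 and 1107 in cerebrum. Every spinal cord sample lay above every cerebrum sample, narrowly so for spinal cord replicate 1 and cerebrum replicate 2. The difference was 0.35 ± 0.13 (log2, adjusted p = 0.293 in limma), and with the preparation as a block it was 0.35 ± 0.09 with an adjusted p of 0.0238. With that block Scd2 was thus higher in spinal cord, as were 3.63% of all genes. Me1, the malic enzyme that supplies NADPH, read 244, 274 and 270 in spinal cord and 229, 201 and 218 in cerebrum. Its difference was 0.28 ± 0.11 (log2, adjusted p = 0.338, and 0.128 with the block). Its spinal cord samples were higher in all 3 preparations, by 0.09, 0.45 and 0.31 on the log2 scale.

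Scd1, the paralog of Scd2, read 3531, 3895 and 3341 in spinal cord and 4132, 4140 and 2804 in cerebrum, and its tissues overlapped. Scd1 and Scd2 transcripts are alike, and whether their probes read each other was not tested. Acly, which supplies cytosolic acetyl-CoA, read 11115, 11528 and 10122 in spinal cord and 12432, 12617 and 8974 in cerebrum. Scd1 and Acly differed by -0.02 ± 0.15 and -0.04 ± 0.13 between tissues (log2). Fasn, the fatty acid synthase, was close to the background floor of 67.2 to 68.6, at 96.2, 100 and 93.9 in spinal cord and 82.2, 102 and 98.7 in cerebrum, so a change in it would be understated. Elovl6, which elongates the products of Fasn, differed by -0.04 ± 0.11 (log2).

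**Figure D2:**
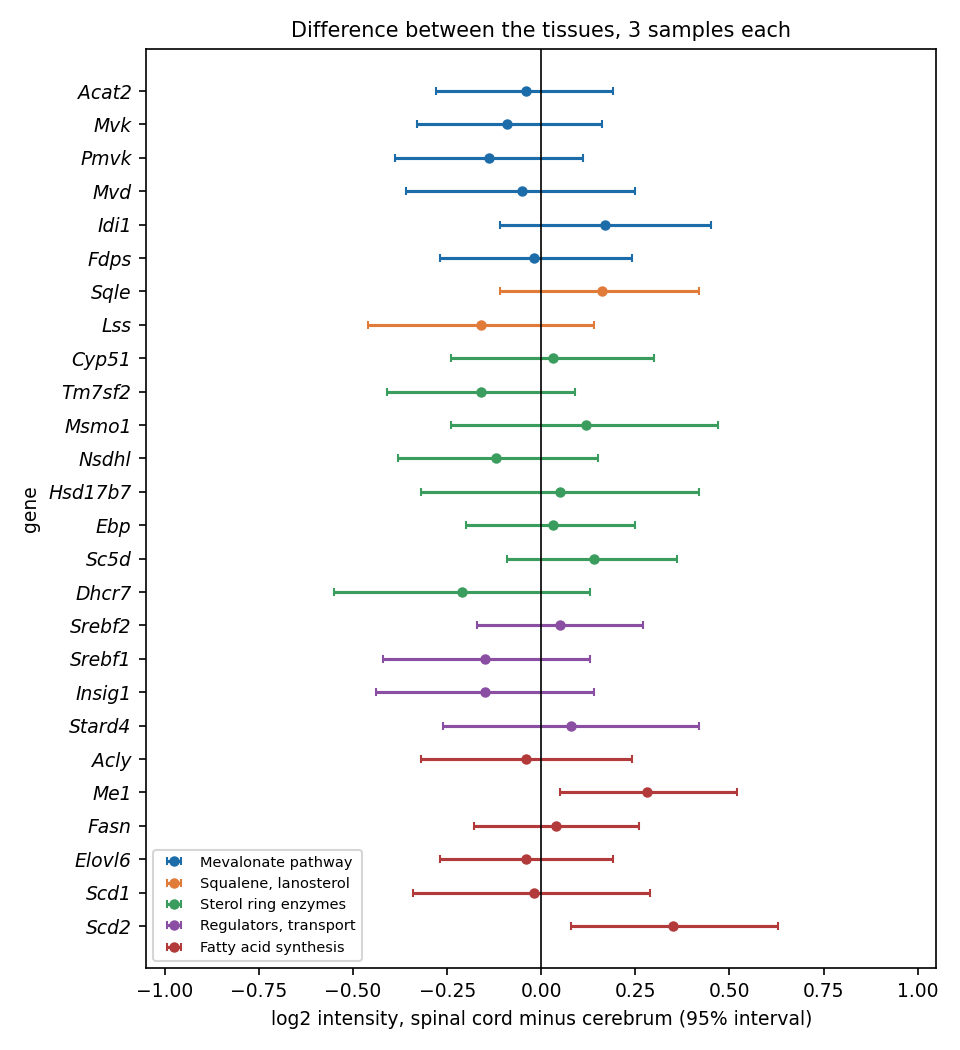
Points give the fitted difference in log2 intensity, spinal cord minus cerebrum, for the 26 tested genes with 95% intervals, grouped by role. Most intervals cross 0, with Me1 (0.05 to 0.52) and Scd2 (0.08 to 0.63) the exceptions before adjustment over all genes.

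Without cerebrum replicate 3, 17 of 26 differences lay below 0 and Dhcr7 was called as lower in spinal cord, by -0.42 ± 0.10 (log2, adjusted p = 0.0258), where 5.11% of all genes were called. Lss was next, at -0.32 ± 0.10 with an adjusted p of 0.0935. When arrays were weighted by their quality in limma, which called 8.71% of all genes, Dhcr7 (-0.37, adjusted p = 0.0386) and Me1 (0.37, adjusted p = 0.017) were called and 20 of 26 differences lay below 0.

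Within preparations the tissue difference ran in opposite ways. In preparation 1, 19 of 26 genes (73.1%) were lower in spinal cord than in cerebrum, in preparation 2 it was 20 (76.9%) and in preparation 3 it was 4 (15.4%), against 47.9%, 51.7% and 48.2% of all genes tested. Median differences were -0.17, -0.09 and 0.21 on the log2 scale in the 3 preparations, against 0.01, -0.01 and 0.01 over all genes. Of the 26 genes 16 (61.5%) were lower in spinal cord in preparations 1 and 2 and higher there in preparation 3, against 12.8% of all genes. They comprised 10 of the 16 sterol enzymes tested, 3 of the 4 regulators or carriers and 3 of the 6 fatty acid enzymes. Dhcr7 showed it with differences of -0.52, -0.37 and 0.26, Lss with -0.45, -0.24 and 0.21, and Insig1 with -0.40, -0.33 and 0.28. Stard4 had the highest value in preparation 3, 0.60, after -0.27 and -0.08. Only Tm7sf2, Mvk, Srebf2 and Fasn were lower in spinal cord in preparation 3. Each preparation holds 1 sample per tissue, so these differences have no replicate check of their own. The difference in preparation 3 contains cerebrum replicate 3, so the turn and the low readings of that library, given next, are not separate results. For the 26 genes the median distance from the other samples of the tissue was 0.05 for spinal cord replicate 3 and -0.24 for cerebrum replicate 3 (log2).

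**Figure D3:**
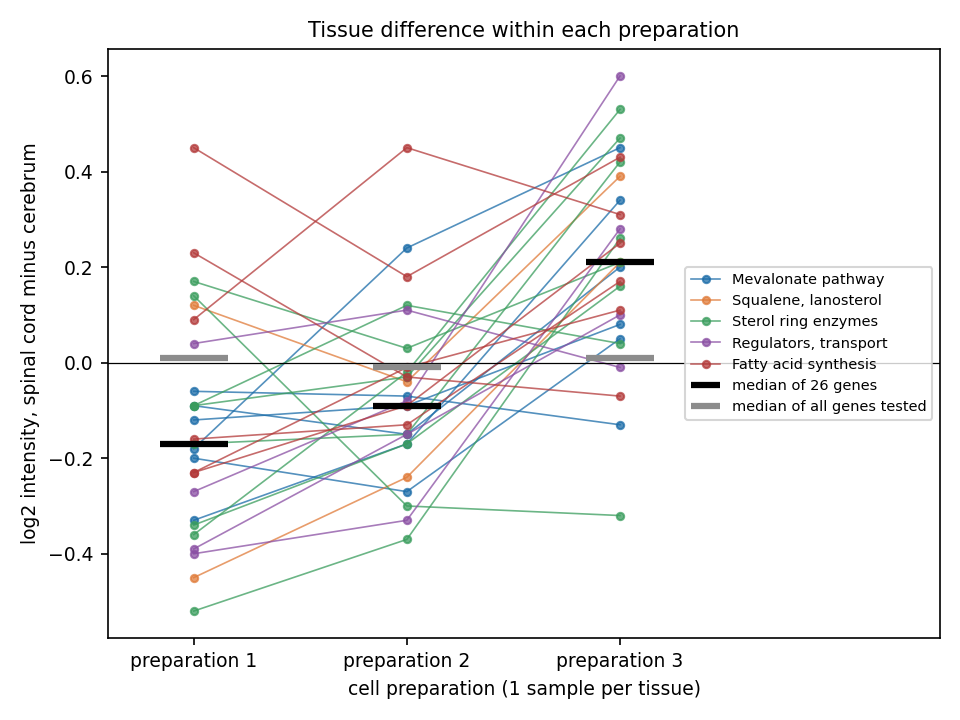
Each line joins the log2 difference, spinal cord minus cerebrum, of 1 gene across the 3 cell preparations, coloured by role, with black bars for the median of the 26 genes and grey bars for the median of all genes tested. The black bars stand at -0.17, -0.09 and 0.21 while the grey bars stay within 0.01 of 0.

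Cerebrum replicate 3 read low for most of these genes. It was the lowest of the 6 samples for 13 of 26 genes (50%), against 27.6% of all genes, and it lay below the mean of cerebrum replicates 1 and 2 for 21 of 26 (80.8%), against 54.2%. Its median distance from that mean was -0.24 on the log2 scale, against -0.03 over all genes. The distance was -0.71 for Hsd17b7, -0.63 for Dhcr7, -0.61 for Stard4, -0.56 for Scd1, -0.49 for Lss and -0.48 for Acly. It was near 0 for Scd2 (0.00), Ebp (-0.02) and Me1 (0.03), and above 0 for Mvk (0.19), Fasn (0.11), Srebf2 (0.10) and Tm7sf2 (0.08). Summed over the 26 genes, intensity was 63672, 68977 and 66890 in spinal cord and 69865, 73802 and 55633 in cerebrum. Such a sum weighs the brightest probes most, and Fdps, Acly and Sqle read 9973, 8974 and 5986 in cerebrum replicate 3. Cerebrum replicate 2 was in turn the highest sample for 12 of 26 genes (46.2%), against 14.1% of all genes. The median SD between the 3 samples was 0.10 in spinal cord and 0.19 in cerebrum for these genes, against 0.10 and 0.14 for all genes.

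Spinal cord replicate 1 was the low sample of its tissue. It lay below the mean of spinal cord replicates 2 and 3 for 22 of 26 genes (84.6%), against 45.1% of all genes, with a median distance of -0.15 (log2), against 0.02 over all genes. Msmo1 was farthest, at -0.58, followed by Mvd at -0.41 and Idi1 at -0.37. Fdps, Acly, Sqle and Tm7sf2 were above that mean, by 0.07, 0.04, 0.02 and 0.25.

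Between preparations, with tissue in the model, 1 of 26 genes passed limma's F-test, where 5.02% of all genes did. That gene was Msmo1 (adjusted p = 0.045), whose log2 means were 12.20, 12.69 and 12.55 in preparations 1, 2 and 3. Acly (adjusted p = 0.074; means 13.52, 13.56 and 13.22) and Scd1 (adjusted p = 0.0844; means 11.90, 11.97 and 11.58) came next and did not pass. At an unadjusted p under 0.05 there were 7 of 26 genes, against 2749 of 11225. The median range between the 3 preparation means was 0.22 (log2), against 0.19 for all genes. In limma's pairwise contrasts 0 of the 26 genes passed for preparation 1 minus 3, 2 minus 3 and 1 minus 2, where 10.1%, 0.169% and 0.187% of all genes did, and 5, 7 and 3 of them (19.2%, 26.9% and 11.5%) had an unadjusted p under 0.05, against 28.2%, 16.5% and 10.6% of all genes.

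The count between preparations rested on single libraries. Without spinal cord replicate 3 it was 11 of 26, while the share of all genes was 20.4%. The 11 were Fdps, Sqle, Lss, Cyp51, Msmo1, Hsd17b7, Dhcr7, Insig1, Stard4, Acly and Scd1, with adjusted p-values from 0.000142 (Msmo1) to 0.0336 (Insig1). In that fit preparation 3 is represented by cerebrum replicate 3 alone. Without spinal cord replicate 1 the count was 3 (Hsd17b7, Acly and Scd1), where 7.18% of all genes passed. Without cerebrum replicate 2 it was 0, where 6.90% of all genes passed, and leaving out each of the other libraries gave 1.

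Probes of the same gene did not always go together. For Srebf2 the brightest probe lay 0.10 higher in cerebrum replicate 3 than in the other cerebrum samples, while its other probe read 9.40, 9.37 and 9.19 in spinal cord and 9.49, 9.63 and 8.86 in cerebrum, 0.69 lower in replicate 3 on the log2 scale. The other tested probes of Fdps (-0.46), Sqle (-0.30), Hsd17b7 (-0.27), Elovl6 (-0.41) and Insig1 (-0.24 and -0.28) also lay below the other cerebrum samples in replicate 3. Of the 3 further probes of Nsdhl, 1 lay 0.07 above them and the others at -0.21 and -0.11. The other Fdps probe passed the F-test between preparations (adjusted p = 0.0346), with 7.87, 8.38 and 7.91 in spinal cord and 8.25, 8.54 and 7.93 in cerebrum, which its brightest probe did not (adjusted p = 0.151).

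Neighbouring pathways give the setting. Among 8 further genes of sterol synthesis, 10 of the isoprenoid branch, 8 sterol regulators, 16 genes of sterol uptake, efflux or esterification and 32 further genes of fatty acid synthesis tested, 0 passed between tissues in limma, with 0, 0, 1, 4 and 2 at an unadjusted p under 0.05, against 10.9% of all genes. With the preparation as a block, Abcg1, a cholesterol exporter, and Lrp1, a lipoprotein receptor, were higher in spinal cord (adjusted p = 0.00899 and 0.0184), and Vldlr, another lipoprotein receptor, Soat1, which esterifies cholesterol, and Acsl1, which activates fatty acids, were lower there (adjusted p = 0.0193, 0.0281 and 0.0212). These were 4 of 16 genes of uptake and efflux and 1 of 32 further fatty acid genes, against 6.33% of all genes. Acsl1 read 7.23, 7.31 and 7.07 in spinal cord and 7.87, 7.66 and 7.29 in cerebrum on the log2 scale. The median distance of cerebrum replicate 3 from the other cerebrum samples was -0.12 for the further sterol genes and -0.11 for the further fatty acid genes, against -0.24 for the 26 genes. It was -0.17 for the sterol regulators, -0.04 for the isoprenoid branch and -0.01 for uptake and efflux. The turn between preparations was seen in 5 of the 8 further sterol genes (62.5%) and 10 of the 32 further fatty acid genes (31.2%), against 12.8% of all genes. These were lower in spinal cord in preparations 1 and 2 and higher there in preparation 3. The same turn was seen in 0 of the 8 sterol regulators, 1 of the 10 isoprenoid genes (10%) and 2 of the 16 uptake and efflux genes (12.5%). Fatty acid oxidation lay on the other side, with a median of 0.21. Only 2 of its 18 genes (11.1%) lay below the mean of cerebrum replicates 1 and 2, against 54.2% of all genes. In limma's F-test between preparations 0 of the 18 passed, where 5.02% of all genes did. At an unadjusted p under 0.05 in that test there were 8 of 18, against 2749 of 11225. Slc25a20, the mitochondrial carrier of acylcarnitines, read 10.95, 10.95 and 11.00 in spinal cord and 10.95, 10.94 and 11.45 in cerebrum.

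**Figure D4:**
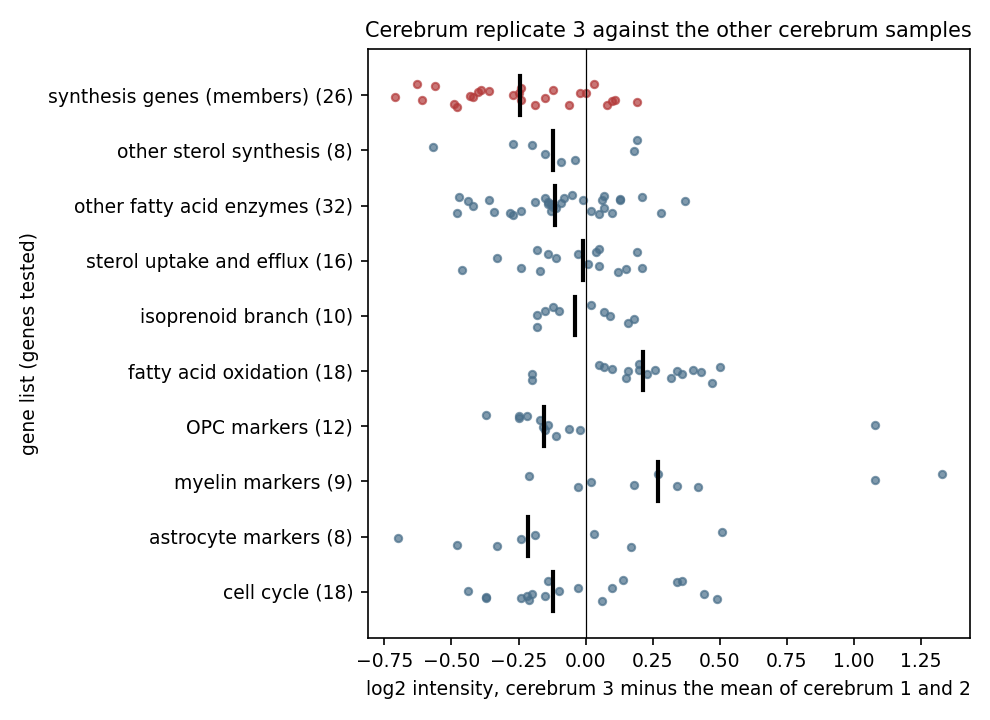
Each point is 1 gene of a list, placed by its log2 intensity in cerebrum replicate 3 minus the mean of cerebrum replicates 1 and 2, with a bar at the list's median. The synthesis genes have a median of -0.24 and fatty acid oxidation one of 0.21, against -0.03 for all genes tested.

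Markers of cell state were also shifted in that library. Fa2h, which hydroxylates the fatty acids of myelin lipids, read 9.08, 9.05 and 9.48 in spinal cord and 8.84, 8.73 and 9.87 in cerebrum. It was highest in replicate 3 of each tissue and differed between preparations (F-test adjusted p = 0.0119). Of the 9 myelin markers tested 4 passed that F-test, where 5.02% of all genes did. Not all 9 went one way, since 2 lay below the mean of cerebrum replicates 1 and 2 in replicate 3, against 54.2% of all genes. Between tissues 1 of the 9 was called higher in spinal cord and 1 lower, where 2.95% of all genes were called. Gpr17, a marker of committed precursors, read 11.23, 11.16 and 11.37 in spinal cord and 12.17, 12.36 and 13.34 in cerebrum and was lower in spinal cord (-1.37, log2, adjusted p = 0.00495). The other 11 of 12 OPC markers (91.7%) lay below the mean of cerebrum replicates 1 and 2 in replicate 3, against 54.2% of all genes. Cerebrum replicate 3 was the lowest of the 6 samples for 5 of the 12 (41.7%), against 27.6% of all genes. The median distance of cerebrum replicate 3 from the other cerebrum samples was 0.27 for 9 myelin markers, -0.16 for 12 OPC markers, -0.21 for 8 astrocyte markers, -0.12 for 18 cell cycle genes and -0.14 for 12 stress and hypoxia genes. Myelin marker intensity summed to 18380, 15483 and 17520 in spinal cord and 19672, 15441 and 20325 in cerebrum. The part of these shifts in the low readings of the synthesis genes was not tested.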

How the data were processed

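Biotin-labelled cRNA of 6 primary mouse OPC cultures was hybridised to bead arrays, per the labels. The submitters' processing notes name GenomeStudio 2011.1. What normalization the authors applied was not stated in any source used. The deposited values were linear probe intensities, which the authors' table gives with the same range (36.5 to 49682), median (64.5) and upper quartile (163) on every array. Another deposited table held 12 further columns of intensities and detection values that no label ties to a sample, so only its probe IDs and gene symbols were read. Of 30869 symbols 16219 matched a current symbol in the RefSeq gene table for GRCm38.p6, 5717 a synonym of a single gene and 8933 none, and Msmo1, Me1 and Acaca were found under the older or clone names Sc4mol, Mod1 and A530025K05Rik.

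A probe was tested where its log2 intensity was above the percentile 95 of the 1302 olfactory receptor probes on at least 3 arrays (20988 of 45281 probes). limma 3.58.1 in R 4.3.3 (eBayes with an intensity trend) was fitted to all of these, with Benjamini-Hochberg adjustment and a threshold of 0.05. The tissue fit had no block, and the F-test between preparations had tissue in its model. The design text gives same-numbered samples a shared cell preparation. Their deviations from the tissue means correlated with 0.53, 0.21 and 0.50 over probes (differently numbered samples, -0.45 to 0.03), so the numbers were taken as pairs. Over the 26 genes alone the correlations were weaker, at 0.10, 0.28 and 0.07 (differently numbered samples, -0.30 to 0.16). The fits were tested on simulated data. The simulated noise was drawn independently for each array, so the correlation of same-numbered samples was not part of that check. Alternatives were no trend, the block, other filters, quantile normalization, background subtraction, the mean of a gene's probes, array weights and leaving out each sample. All 29 genes were named where measured. From other lists up to 3 called genes per direction were eligible, or the 2 largest differences where none was called, with 4 OPC markers and Xist. Abcg1, Lrp1, Vldlr, Soat1 and Acsl1 were named for their values under the block. A further called marker is not reported here. The genes and the lists were chosen with earlier results of these data known. Levels of different probes were not compared. With 3 arrays per tissue, the number of arrays sets the precision.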

Additional observations from a re-analysis of the deposited data

How the results depend on the processing

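Of the 26 genes 13 kept the sign of their tissue difference under all 14 alternatives. Some of these could not turn a sign. In this balanced design dropping the trend, adding the block or changing the filter leaves a probe's fitted difference as it was. Quantile normalization could hardly change it, since the arrays already had the same range, median and upper quartile. With array weights the log2 difference, spinal cord minus cerebrum, turned to -0.02 for Sqle, -0.08 for Cyp51, -0.03 for Msmo1, -0.07 for Hsd17b7, -0.05 for Stard4 and -0.03 for Fasn. Leaving out 1 sample at a time gave -0.09 to 0.04 for Acat2, -0.17 to 0.08 for Mvd, -0.16 to 0.06 for Fdps, -0.10 to 0.11 for Cyp51, -0.01 to 0.31 for Msmo1, -0.18 to 0.21 for Hsd17b7, -0.01 to 0.07 for Ebp, -0.12 to 0.20 for Stard4, -0.20 to 0.05 for Acly, -0.06 to 0.10 for Fasn, -0.12 to 0.03 for Elovl6 and -0.21 to 0.07 for Scd1, each range crossing 0. The count of genes called between tissues, 0, became 1 with the replicate block (Scd2) and 2 with array weights, and lay between 0 and 1 when a sample was left out. It stayed 0 without the trend, with either other filter, with quantile normalization, with background subtraction and with the mean of probes. The count between preparations, 1, became 0 without the trend, without a filter, with background subtraction and with the mean of probes, and lay between 0 and 11 when a sample was left out. Over all genes the count between tissues, 331, was 711 with the block, 978 with array weights and 196 to 574 when a sample was left out. Over all genes the count between preparations, 563, was 383 without the trend, 354 without a filter, 121 with the mean of probes, 11 with background subtraction and 228 to 2291 when a sample was left out. The cause was not tested. Residual background understates the differences of dim genes such as Fasn, Srebf1 and Sc5d.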
